A study of Homo sapiens with 4 samples.

Results

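The genes described here are 10 transcription factor genes of the growth factor and stress response, out of 18323 genes with a value in this array study. They are the FOS family (FOS, FOSB, FOSL1 and FOSL2), the JUN family (JUN, JUNB and JUND), ATF3, EGR1 and MYC. They were taken by name and not ranked by their values, but earlier results of these data were known when they were chosen. Each of the 10 had 1 probe set with a single gene symbol, and all 10 passed the filter on dim probe sets.

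RNA came from the human nasopharyngeal carcinoma lines HK1 and HK1EBV, with 1 array for each of 4 groups. Of each line, 1 culture received 110 µM CAPE (caffeic acid phenethyl ester) and 1 culture 0.1% DMSO, the solvent dimethyl sulfoxide, as its control, both over 24 h. Propolis contains CAPE, a polyphenol ester best known for inhibiting NF-κB. HK1EBV is read from its name as HK1 with Epstein-Barr virus, the labels give no more on how it was made, and no viral transcript was analysed here. All cells grew in medium with fetal bovine serum. There was no replicate in any group: the lines stood in for replicates of CAPE and the treatments for replicates of the line difference. The spread behind each p-value was how far the CAPE changes of the lines differed, drawn toward a value estimated over all genes. It is not a spread among replicate cultures, and it may be technical or a true difference between the lines in CAPE response.

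The array medians were 2.23 to 2.27 on the log2 scale. Of 8 epithelial markers listed 5 had a probe set: KRT5 stood at 9.49 to 10.25, CDH1 at 7.61 to 8.39, EPCAM at 7.63 to 8.10 and KRT18 at 6.49 to 6.94, while KRT8 was near the array medians, at 2.26 to 3.05. The filter on dim probe sets, a mean log2 value of 0.997, removed the leukocyte markers PTPRC and CD3E, the endothelial markers PECAM1 and KDR, and the fibroblast markers DCN and LUM. It kept COL1A1 (3.42 to 3.64), COL1A2, COL3A1 and PDGFRB of the fibroblast list, LCP1 (2.61 to 3.48) and CD14 of the leukocyte list, and VWF and CDH5 of the endothelial list. LCP1 was higher on both HK1EBV arrays than on both HK1 arrays. Summed over a list, the log2 values ranged across the 4 groups from 34.62 to 36.10 for the epithelial genes, from 10.25 to 11.06 for 6 fibroblast genes, from 5.89 to 6.94 for 4 leukocyte genes and from 4.32 to 4.58 for 4 endothelial genes. The part of other cell types in the results was not tested.

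AP-1 is a dimer of basic leucine zipper proteins. JUN proteins pair with themselves or with FOS and ATF proteins, while FOS proteins need a partner, and the pair binds short palindromic sites in DNA. FOS, FOSB, EGR1 and ATF3 are classic immediate early genes: their RNA appears within minutes to hours of a growth factor or stress signal that runs through MAP kinases and serum response factor, and it is short-lived. FOSL1, also called FRA-1, lasts longer and is abundant in many squamous carcinomas. MYC pairs with MAX and drives ribosome production and growth. At 24 h a transient first wave would be past, so these arrays show the level reached later.

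Many AP-1 genes are themselves bound by AP-1 and ATF proteins, so the 250 bases upstream of the RefSeq start (build GRCh38.p14) were searched for such sites on both strands. The sequence table held 8 of the 10 genes, with 2 starts for ATF3. The cyclic AMP response element (CRE), TGACGTCA, was found upstream of JUND, as in 1.65% of all 35116 promoters in the table. A variant of it, TGACATCA, lay upstream of JUN and of the first ATF3 start, as in 2.38% of promoters. This variant was searched as the form known from the JUN promoter, so its match at JUN was fixed in advance. The shorter core TGACG, which the full CRE holds on both strands, was found in 7 of the 8 genes and in 21.2% of promoters. The AP-1 site TGACTCA (4.20% of promoters) and the EGR site GCGTGGGCG (0.720%) matched 0 of the 8 in this window. The serum response element, searched by its CArG-box pattern, was found in this window at EGR1 alone among the 8, and in 1.16% of promoters. Sequence farther upstream was not searched, so a gene with no match here may still carry the element. These are matches of letters, not measured binding sites.

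The following windows are shown because they carry these matches in the genes whose values are described next. They run 5′ to 3′ on the gene's strand, with the match in capitals and up to 15 bases on each side. All lie before the start of the gene and outside its transcript from that start. At EGR1 a TGACG core on the other strand, at -66 to -62, is left in lower case.
JUN, chr1:58784092-58784129, minus strand: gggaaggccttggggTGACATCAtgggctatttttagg
ATF3, chr1:212565269-212565306, plus strand: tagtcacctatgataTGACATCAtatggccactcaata
JUND, chr19:18281800-18281837, minus strand: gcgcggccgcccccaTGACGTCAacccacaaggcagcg
FOS, chr14:75278749-75278783, plus strand: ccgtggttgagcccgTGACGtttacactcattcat
FOSB, chr19:45467921-45467955, plus strand: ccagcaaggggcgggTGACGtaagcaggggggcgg
EGR1, chr5:138465359-138465420, plus strand: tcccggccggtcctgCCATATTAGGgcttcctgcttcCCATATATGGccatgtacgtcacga
JUN and ATF3 share the variant site, at -67 to -60 and at -123 to -116 from their starts. On the gene's strand the core lay at -64 to -60 in FOS, at -60 to -56 in FOSB and at -66 to -62 in FOSL2. It lay farther upstream on that strand in JUN, at -123 to -119, in JUNB, at -137 to -133, and in JUND, at -200 to -196.

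**Figure D1:**
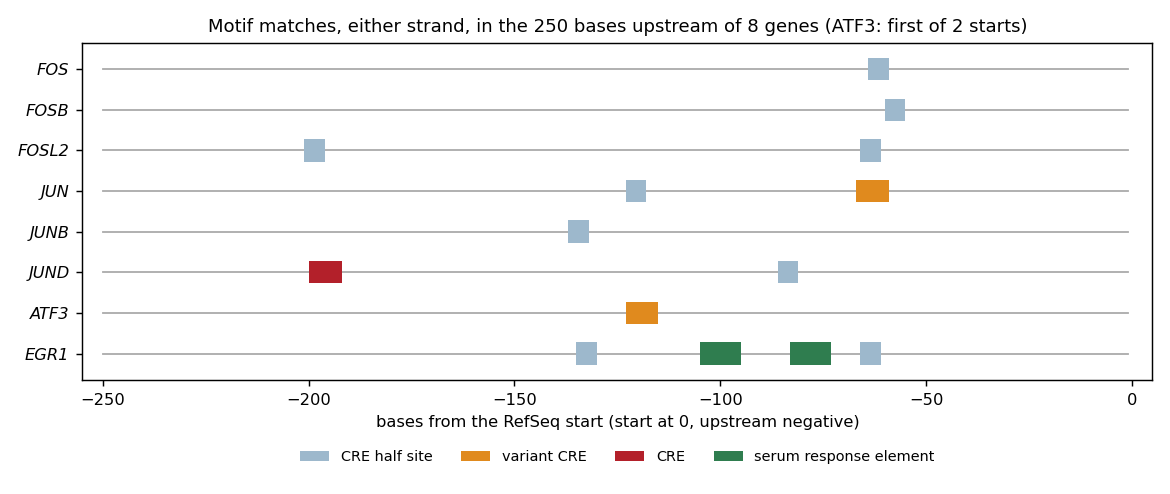
Motif matches upstream of 8 of the genes, drawn to scale in bases from the RefSeq start, with each bar 1 match on either strand. EGR1 has the 2 serum response elements, at -105 to -96 and -83 to -74, and JUND the full CRE at -200 to -193.

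The first comparison set CAPE against DMSO in both lines. ATF3 and JUN, with FOS, JUNB, JUND and FOSB, were higher with CAPE in both lines, FOSL1 and MYC were lower in both, EGR1 differed in sign between the lines, and FOSL2 was higher in HK1 and near 0 in HK1EBV. The largest mean difference was that of ATF3, at 2.01-fold. No member passed the test across all genes (0 of 10, threshold of 0.05 on the Benjamini-Hochberg adjusted p of limma), where 1 of 15194 genes, or 0.00658%, did. At an unadjusted p under 0.05 it was 7 of 10, against 19.5% of all genes.

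The count depended on 47 genes whose residual was exactly 0. The prior degrees of freedom that limma estimated over all genes were 3.90 with them and 7.58 without them. Without them 3 members passed, against 6.60% of genes. ATF3 and JUN were the 2 higher, against 3.18% of genes called higher, and FOSL1 was the 1 lower, against 3.42% called lower. A wider definition of 0, within 1e-08 and chosen after the data were seen, left out 57 genes and added MYC to these (adjusted p = 0.0492). Within 1e-09 (52 genes) MYC did not pass (adjusted p = 0.0563). In the paragraphs on single genes the adjusted p of limma over all genes comes first, and that without the 47 genes second.

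Signs alone divided the members as follows. Of 10, 6 were higher with CAPE in both lines, against 32.1% of genes, and 2 were lower in both, against 29.5%. Both CAPE arrays stood above both DMSO arrays for 4 members, FOS, JUNB, JUND and ATF3, against 18.4% of genes, and below them for 0, against 17.7%. The median of the 10 members was 0.35 in HK1 and 0.29 in HK1EBV, and that of all genes tested 0.02 and -0.00, in log2 units of CAPE minus DMSO.

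**Figure D2:**
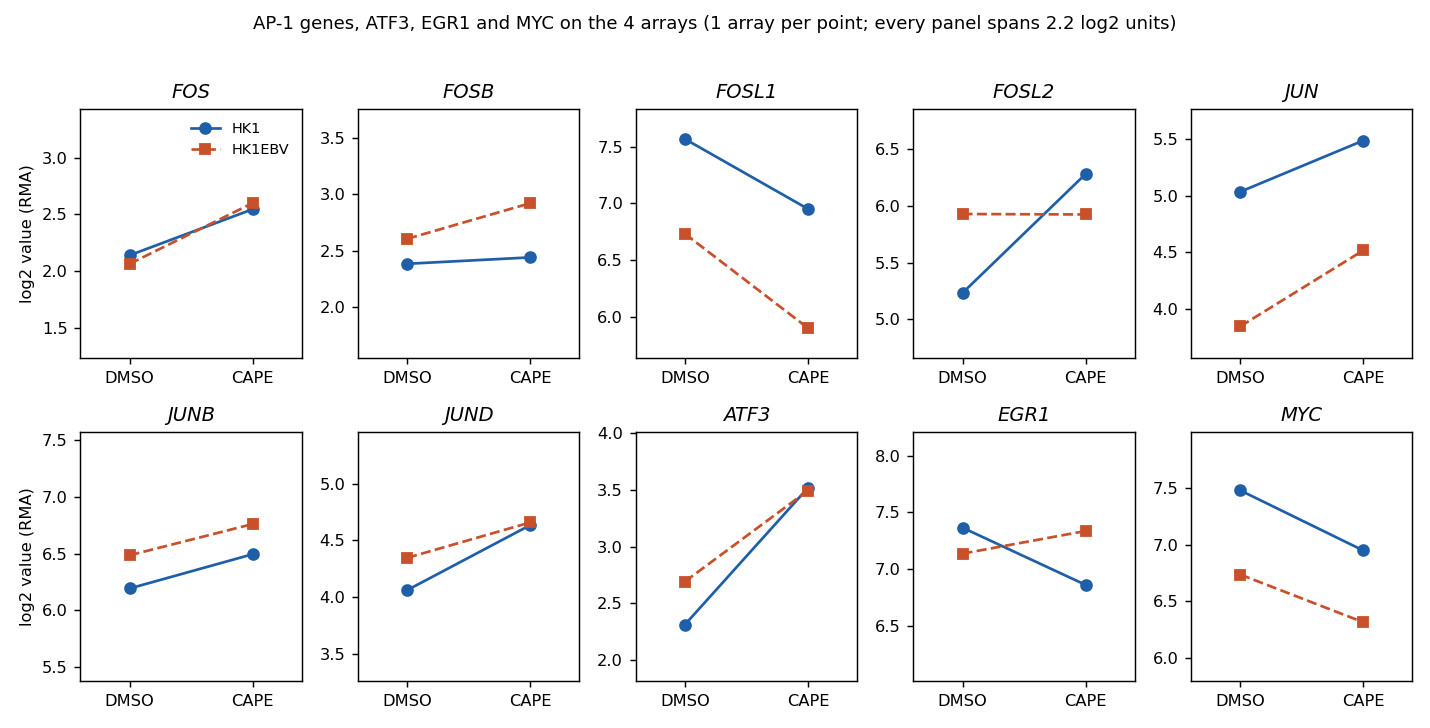
The log2 value of each of the 10 genes on the 4 arrays, with circles and solid lines for HK1 and squares and dashed lines for HK1EBV. Each point is 1 array, there is no error bar, and each panel spans 2.2 log2 units. The lines run nearly parallel for JUN, JUNB, MYC and FOSL1 and cross for FOSL2, EGR1 and FOS, and nearly meet at CAPE for ATF3.

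ATF3 is a stress-induced member of the ATF/CREB group that pairs with JUN proteins and often represses. Its log2 value was 2.31 with DMSO and 3.52 with CAPE in HK1, and 2.69 and 3.50 in HK1EBV. The CAPE arrays lay close together and above both controls, which differed by 0.38. The HK1 control was near its array median of 2.25. The CAPE change was 1.21 in HK1 and 0.80 in HK1EBV, with a mean of 1.01 ± 0.14 (moderated SE of limma, n = 2 lines; adjusted p = 0.0792, or 0.00837 without the genes of zero residual). A mean change of this size or more was found for 0.862% of genes tested.

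JUN, the archetypal AP-1 partner, stood at 5.03 and 5.49 in HK1 and at 3.85 and 4.52 in HK1EBV, each pair given as DMSO then CAPE. CAPE was above DMSO within each line, but the HK1EBV CAPE array was still below the HK1 control, so the treatment groups overlapped. The changes were 0.45 and 0.67, with a mean of 0.56 ± 0.12 (moderated SE, n = 2; limma adjusted p = 0.110, or 0.0417). JUNB, a JUN family member of weaker activating potential, stood at 6.19 and 6.49 in HK1 and at 6.49 and 6.76 in HK1EBV. Its changes of 0.30 and 0.28 were nearly equal (mean 0.29 ± 0.11, limma adjusted p = 0.247, or 0.229). The HK1 CAPE array and the HK1EBV control differed only past the second decimal, so its groups were barely apart. JUND, often held to restrain growth, went from 4.06 to 4.64 and from 4.35 to 4.66. Its CAPE arrays were alike and its controls were not, and the mean change was 0.44 ± 0.12 (limma adjusted p = 0.161, or 0.0908).

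FOS, the prototype of its family, stood at 2.14 and 2.54 in HK1 and at 2.06 and 2.60 in HK1EBV. Both CAPE arrays were above both controls, by 0.41 and 0.54 within the lines (mean 0.47 ± 0.11, n = 2; limma adjusted p = 0.128, or 0.0664). Both FOS controls lay below their array medians of 2.25. FOSB, its near relative, stood at 2.39 and 2.44 in HK1 and at 2.61 and 2.92 in HK1EBV. It differed by 0.06 and 0.31 (mean 0.19 ± 0.12, limma adjusted p = 0.497, or 0.502), and 39.7% of genes had a mean change as large. FOS lies on chromosome 14 beside 2 other basic leucine zipper genes of the list below, JDP2 and BATF. JDP2, a repressor of AP-1, differed by -0.01 and -0.04, and BATF, known from lymphocytes, by 0.09 and -0.28.

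FOSL1, the FOS-related gene most tied to invasive carcinoma cells, was lower with CAPE in both lines, unlike FOS and FOSB. It stood at 7.57 with DMSO and 6.95 with CAPE in HK1, and at 6.73 and 5.90 in HK1EBV. CAPE was lower within each line, by -0.62 and -0.83, and the HK1 CAPE array lay above the HK1EBV control. The mean change was -0.72 ± 0.12 (moderated SE, n = 2; limma adjusted p = 0.0849, or 0.0187), a 1.65-fold difference, and 2.80% of genes had a mean change as large. FOSL2, or FRA-2, stood at 5.23 and 6.28 in HK1 and at 5.93 and 5.93 in HK1EBV. The HK1 control was the low array and the 3 others lay within 0.36 of each other. CAPE differed from DMSO by 1.05 in HK1 and by -0.00 in HK1EBV, which became 0.014 with arrays shifted to a common median (mean 0.52 ± 0.26, limma adjusted p = 0.364, or 0.212).

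EGR1, a zinc finger factor of the same early response, stood at 7.36 and 6.86 in HK1 and at 7.14 and 7.33 in HK1EBV. It was lower with CAPE in HK1, by -0.50, and higher in HK1EBV, by 0.20, so its mean of -0.15 ± 0.19 (limma adjusted p = 0.744, or 0.712) describes neither line. MYC stood at 7.48 and 6.95 in HK1 and at 6.74 and 6.32 in HK1EBV. It was lower with CAPE within each line, by -0.53 and -0.42 (mean -0.48 ± 0.11, n = 2; limma adjusted p = 0.124, or 0.0630). As for FOSL1, the HK1 control was highest and the HK1EBV CAPE array lowest.

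**Figure D3:**
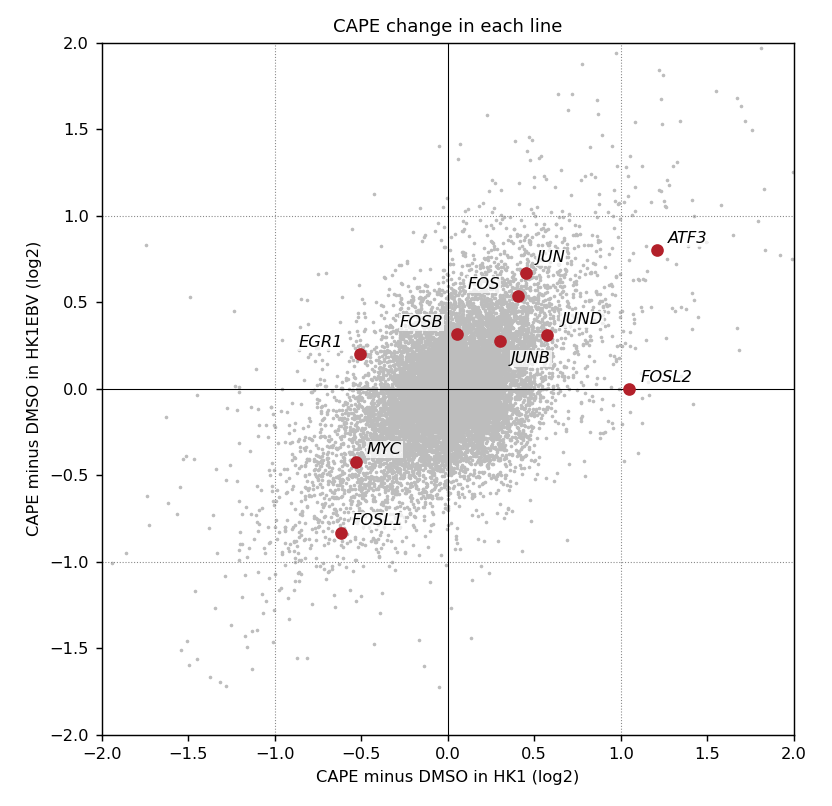
CAPE minus DMSO in HK1 (horizontal) against HK1EBV (vertical), in log2 units, with 1 grey point per gene tested and the 10 genes in red. Dotted lines mark a 2-fold change, and 14 genes lie outside the axes of 2 log2 units. ATF3 lies far to the upper right, FOSL1 and MYC to the lower left, and FOSL2 on the horizontal axis at 1.05.

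By size alone, without a test, 2 members were at least 2-fold apart in HK1, ATF3 at 2.31-fold and FOSL2 at 2.07-fold, against 1.36% of genes. In HK1EBV it was 0 of 10, against 1.22% of genes. There ATF3 and FOSL1 were the farthest, at 1.74-fold higher and 1.78-fold lower. Between the lines, the CAPE effect differed 2-fold or more for 1 member, FOSL2, at -1.05, against 0.770% of genes. For EGR1 it was 0.70, and 3.26% of genes had as large a value. For the other 8 it was at most 0.40 in size. With 1 array a group, none of these differences could be tested.

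The second comparison set HK1EBV against HK1 over DMSO and CAPE together. JUN and FOSL1 were lower in HK1EBV, and MYC missed the threshold. Of the 10 members 2 passed, both lower (limma with Benjamini-Hochberg adjustment), against 2.90% of genes in either direction and 1.58% lower. Without the genes of zero residual it was 3, with MYC, against 9.74% of genes. At an unadjusted p under 0.05 it was 4 of 10, against 23.1% of genes. JUN and FOSL1 lost the call when genes were not filtered for dim probe sets (limma adjusted p = 0.119 for each) and when treatment was left out of the model (0.298 for JUN and 0.394 for FOSL1).

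JUN was lower in HK1EBV by -1.19 with DMSO and by -0.97 with CAPE, and both HK1EBV arrays lay below both HK1 arrays. The mean was -1.08 ± 0.12 (moderated SE, n = 2 treatments; limma adjusted p = 0.0363, or 0.00262), a 2.11-fold difference. FOSL1 was lower by -0.84 and -1.05, again without overlap of the lines (mean -0.94 ± 0.12, limma adjusted p = 0.0425, or 0.00439), which is 1.92-fold. MYC differed by -0.74 and -0.63 (mean -0.69 ± 0.11, limma adjusted p = 0.0539, or 0.0129). For JUN the line difference was opposite in sign to its CAPE change, while for FOSL1 and MYC both were negative. So the HK1 control held the highest value of FOSL1 and of MYC, and the HK1EBV control the lowest of JUN.

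**Figure D4:**
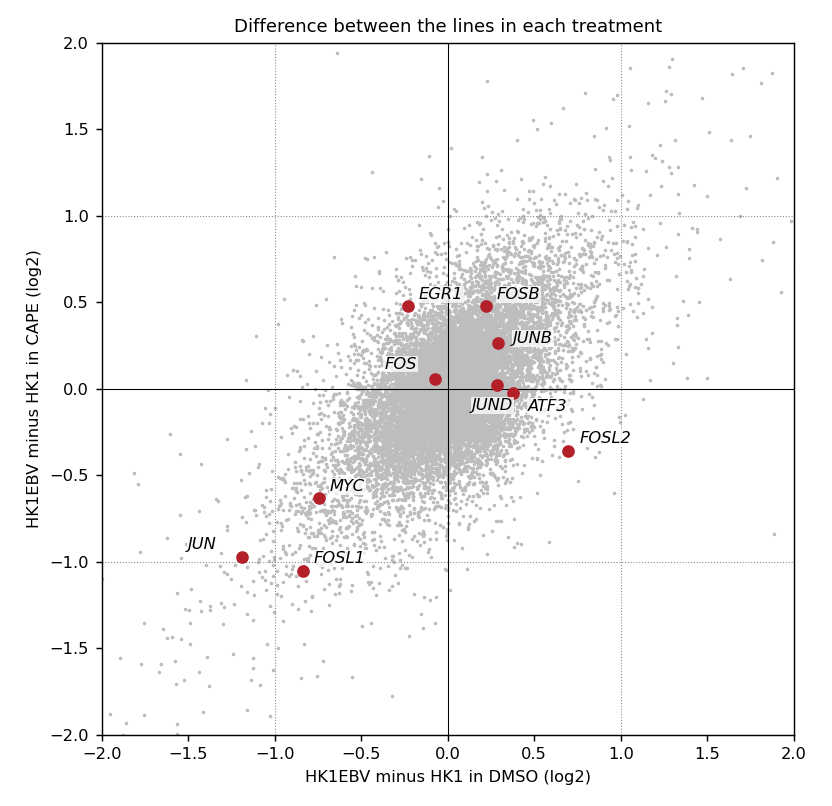
HK1EBV minus HK1 with DMSO (horizontal) against CAPE (vertical), in log2 units, with 1 grey point per gene tested and the 10 genes in red. Dotted lines mark a 2-fold difference, and 42 genes lie outside the axes. JUN, FOSL1 and MYC lie together at the lower left. FOSL2 and EGR1 lie in quadrants of unlike sign, and so do FOS, near the origin, and ATF3, close to the horizontal axis.

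The 7 other members did not pass for the line. FOSB differed by 0.22 and 0.48 (mean 0.35 ± 0.12, limma adjusted p = 0.191), and JUNB by 0.29 and 0.27 (mean 0.28 ± 0.11, adjusted p = 0.220). ATF3 and JUND differed by 0.38 and 0.29 with DMSO and by -0.02 and 0.02 with CAPE. FOS differed by -0.08 and 0.05, FOSL2 by 0.70 and -0.36 and EGR1 by -0.23 and 0.48, so for these 3 the sign turned with the treatment. For ATF3 the value with CAPE became 0.012 with arrays shifted to a common median, so its sign there is not settled. Arrays of the lines did not overlap for 3 members lower in HK1EBV, JUN, FOSL1 and MYC, against 20.9% of genes. For 1 member, FOSB, both HK1EBV arrays were above both HK1 arrays, against 21.4% of genes. Lines at least 2-fold apart were found for JUN alone with DMSO, at 2.28-fold (1 of 10, against 1.87% of genes), and for FOSL1 alone with CAPE, at 2.07-fold (1 of 10, against 2.05%).

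The genes around AP-1 were read from lists chosen with earlier results of these data known, and are given as counts and medians with no test of the list. For CAPE 0 genes of these lists passed over all genes with limma, so counts without the genes of zero residual are given, and in brackets those of the first fit at an unadjusted p under 0.05. Against them stand the 6.60% and 19.5% of all genes given above, and for the line 9.74% and 23.1%. Genes that passed for the line in the first fit stand against 2.90% of all genes.

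Of the other basic leucine zipper partners 22 of 25 were tested, and 3 rose and 0 fell without the genes of zero residual (12 at an unadjusted p). The list medians were 0.14 in HK1 and 0.21 in HK1EBV. DDIT3, or CHOP, a partner of C/EBP and ATF proteins in stressed cells, went from 4.03 to 5.43 in HK1 and from 3.93 to 6.33 in HK1EBV. Its mean change was 1.90 ± 0.25 (limma adjusted p = 0.0704, or 0.00380), in the direction of ATF3 but larger in HK1EBV, where that of ATF3 was larger in HK1. MAFG, a small MAF protein, differed by 0.49 and 1.02 and CEBPB by 0.45 and 0.88 (limma adjusted p = 0.0278 and 0.0346 without the genes of zero residual). ATF4 differed by 0.09 and 0.79, while a dimmer probe set of it gave 0.36 and 0.03, so its value is uncertain. For the line 0 passed (5 at an unadjusted p), and without the genes of zero residual 1 did. This was MAFF, with a mean of -0.49 (limma adjusted p = 0.0921, or 0.0452), and NFE2L2 differed by -0.47.

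Of 31 genes from EGFR through RAS and MAP kinases to ELK1 and serum response factor, 23 were tested, with medians of 0.04 and 0.00 for CAPE. For CAPE 0 passed with limma, with or without the genes of zero residual, and 3 had an unadjusted p under 0.05 in the limma fit. MAP2K6 differed by -0.21 and -0.54, MAPK3, or ERK1, by 0.46 and 0.30, RPS6KA3 by 0.31 and 0.43 and MAP3K1 by 0.18 and 0.41. For the line 0 passed (8 at an unadjusted p), and without the genes of zero residual 2 did, MAP2K4 and MAP2K6, both higher in HK1EBV. MAP2K4, a kinase of JNK that in turn acts on JUN protein, was at 5.41 and 5.40 in HK1 and at 6.08 and 6.03 in HK1EBV, a mean difference of 0.65 ± 0.11 (limma adjusted p = 0.0577, or 0.0155).

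Of the EGR family and the NAB corepressors that bind EGR proteins, 4 of 5 genes were tested. For CAPE 0 passed in either fit, and 0 had an unadjusted p under 0.05. EGR3 differed by -0.18 and -0.30, NAB2 by 0.23 and 0.23, EGR4 by -0.00 and 0.10 and NAB1 by 0.00 and 0.09. NAB1 and NAB2 differed between the lines in opposite ways, by -0.67 ± 0.11 and 0.55 ± 0.11, which passed only without the genes of zero residual (limma adjusted p = 0.0566, or 0.0145, for NAB1 and 0.0734, or 0.0288, for NAB2).

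Of 32 other immediate early genes tested, 3 rose and 3 fell with CAPE without the genes of zero residual (10 at an unadjusted p), with medians of 0.06 in HK1 and -0.06 in HK1EBV. EREG, the growth factor epiregulin, went from 7.69 to 6.62 and from 7.46 to 6.27 (mean -1.13 ± 0.11, limma adjusted p = 0.0672, or 0.00380). DUSP1, a phosphatase that turns off MAP kinases, went from 3.38 to 4.35 and from 4.02 to 5.10 (mean 1.02 ± 0.11, adjusted p = 0.0672, or 0.00521). HBEGF, a ligand of the EGF receptor, was higher with CAPE by 0.86 and 0.66, and CCN1 was lower by -0.95 and -0.46. Between the lines 6 of the 32 were lower in HK1EBV and 1 higher in the limma fit (18 at an unadjusted p). Of all genes 2.90% were called in either direction and 1.58% lower. The list median was -0.29, against 0.00 for all genes. Without the genes of zero residual it was 10 lower and 2 higher. The 6 were HBEGF, CCN1, LIF, DUSP6, SPRY2 and SPRY4, among which DUSP6, SPRY2 and SPRY4 are known inhibitors of MAP kinase signalling that the pathway itself induces, and the 1 higher was ZFP36. These names, besides HBEGF and CCN1, were picked after their values were seen. DUSP1, which also acts against MAP kinases, went the other way from DUSP6, SPRY2 and SPRY4. It was higher in HK1EBV by 0.64 with DMSO and 0.75 with CAPE (mean 0.70 ± 0.11, limma adjusted p = 0.0530, or 0.0123). HBEGF was lower in HK1EBV by -1.43 with DMSO and -1.64 with CAPE (mean -1.54 ± 0.12, adjusted p = 0.0222). CCN1 was lower by -1.27 and -0.79 (mean -1.03 ± 0.15, adjusted p = 0.0487).

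For known AP-1 targets the median CAPE change was 0.40 (HK1) and 0.20 (HK1EBV). Of 17 tested, 3 rose and 0 fell without the genes of zero residual (10 at an unadjusted p). CXCL8, a chemokine gene also driven by NF-κB, went from 3.22 to 4.35 and from 2.57 to 3.85. PLAU, the urokinase gene, went from 5.99 to 7.06 and from 4.74 to 5.53 (mean 0.93 ± 0.13, limma adjusted p = 0.0746, or 0.00871). MMP13, a collagenase gene, stood at 5.19 in the HK1 control and at 7.54, 7.53 and 7.85 on the other arrays, a pattern led by the same low array as that of FOSL2. VEGFA differed by 0.42 and 0.77. The 3 were CXCL8, PLAU and VEGFA, and with 0 taken within 1e-08 MMP13 and MMP3 were added, which makes 5. For the line 1 gene of this list passed, against 2.90% of all genes (10 at an unadjusted p). This was PLAU, lower in HK1EBV by -1.24 and -1.53 (mean -1.39 ± 0.13, limma adjusted p = 0.0274). Without the genes of zero residual it was 6, of which 4 were lower and 2 higher.

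In the MYC network 2 of 13 genes rose and 0 fell with CAPE without the genes of zero residual (5 at an unadjusted p), with medians of 0.00 and -0.15. They were MXD1 and MXI1, which compete with MYC for MAX and repress. MXD1 went from 6.25 to 7.12 in HK1 and from 5.66 to 6.73 in HK1EBV (mean 0.97 ± 0.12, limma adjusted p = 0.0672, or 0.00715), and MXI1 differed by 1.13 and 0.64 (adjusted p = 0.0903, or 0.0154). MGA and ZBTB17 differed by -0.40 and 0.31 on average. For the line 0 passed (2 at an unadjusted p), and without the genes of zero residual 1 did, MGA, higher in HK1EBV by 0.54 on average.

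Among known MYC targets 14 of 22 fell and 1 rose with CAPE without the genes of zero residual (19 at an unadjusted p). Of all genes 3.42% were called lower and 3.18% higher in that fit. In both lines 18 of the 22 were lower, against 29.5% of all genes. The list medians were -0.64 in HK1 and -0.78 in HK1EBV. RRS1, which like the next 3 genes serves ribosome production, went from 5.10 to 3.73 and from 5.12 to 3.46 (mean -1.52 ± 0.13, limma adjusted p = 0.0672, or 0.00199). DKC1, POLR1B and NOP16 differed by -1.18, -1.12 and -1.06 on average. Between the lines the median was -0.20, and 1 passed, against 2.90% of all genes (9 at an unadjusted p). This was CCND2, a cyclin gene lower in HK1EBV by -1.06 and -1.11 (limma adjusted p = 0.0332). Without the genes of zero residual 3 passed for the line, 2 lower and 1 higher, in this list. WDR43, at -0.59 on average, was among the lower (limma adjusted p = 0.0650, or 0.0217).

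**Figure D5:**
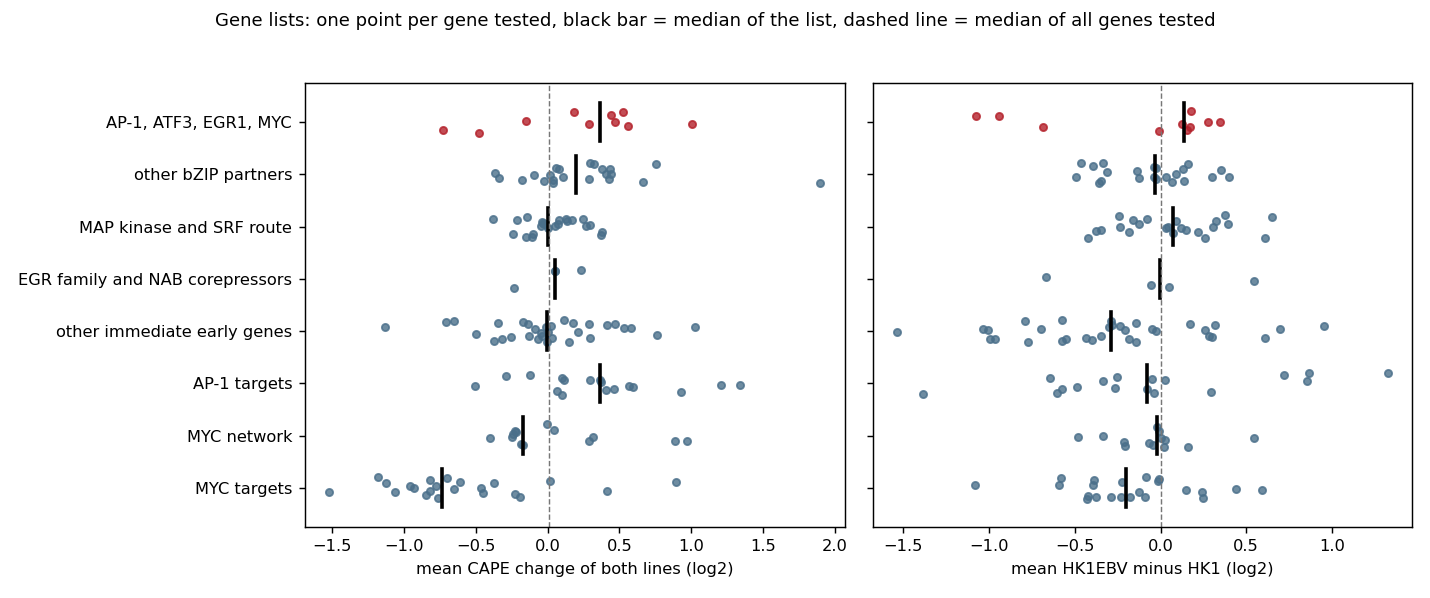
Mean CAPE change of both lines (left) and mean HK1EBV minus HK1 (right), in log2 units, with 1 point per gene tested, a black bar at the median of each list and a dashed line at the median of all genes. MYC targets lie to the left for CAPE, at a median of -0.73, and the other immediate early genes to the left for the line, at -0.29.

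For the 5 members whose values spanned at least 1 log2 unit, the genes with the most similar profile over the 4 arrays were found by the root mean square difference of centred log2 values. With 4 arrays many genes come close: 358 genes lay within 0.2 of MYC, 120 of FOSL2, 77 of ATF3, 59 of FOSL1 and 33 of JUN. Nearest to ATF3 were GTPBP2, MPZL3 and ANO8, at 0.071, 0.094 and 0.099. Nearest to JUN were ITGAV, FEZ1 and SLC7A11, at 0.053, 0.053 and 0.080. Nearest to FOSL1 were LIPG, CCNA2 and PDGFA, at 0.066, 0.071 and 0.072. Nearest to FOSL2 were ZBTB3, ABTB2 and CSTB, at 0.036, 0.061 and 0.098, and nearest to MYC were MED4, TMX3 and SLC37A2, at 0.023, 0.032 and 0.043.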

How the data were processed

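Single-colour arrays were hybridised with biotin-labelled cDNA, 250 ng of total RNA each, per the labels' protocols. The deposited table holds log2 values made by the authors with RMA, per the submitters' processing notes; the log base is taken from what RMA gives, and the sources used here give no later shift, RMA version or build. No level of a single gene was therefore set against that of another. Of 25800 probe sets, 18612 had a single symbol and 18583 of these matched RefSeq by Entrez number. The probe set with the highest mean stood for a gene, and 15194 genes with a mean at or above the 25th percentile were tested.

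Genes were fitted with limma 3.58.1 in R 4.3.3 (lmFit, eBayes) on 4 arrays in an additive model of line and treatment, which leaves 1 residual degree of freedom. The prior over all genes had 3.90, so a moderated SE rests more on the other genes than on the gene's own values. The p-values, all two-sided, were adjusted by Benjamini and Hochberg's method over all genes tested, and 0.05 was the threshold. The fit was checked on simulated data for the sizes of changes, not for the power to call them. Differences within a line or a treatment have no test. Alternatives were other filters, normalizations, priors and models, and leaving out genes of zero residual. The tolerance for that 0 was first widened to 1e-08 after counts of calls had been seen. The text therefore uses exactly 0, and gives 1e-09 and 1e-08 as added alternatives. The planned comparison of protein sequences was not run. The members, lists, tests and alternatives were chosen with earlier results of these data known. Named genes are the 10 members and up to 4 genes per list by CAPE change and 2 by line difference. To these come 3 similar genes for each member whose values spanned at least 1 log2 unit. Also named are the FOS neighbours JDP2 and BATF, the cell type markers, and further list genes picked because they passed in a fit. Motifs were searched in RefSeq promoters of GRCh38.p14.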

Additional observations from a re-analysis of the deposited data

Results flagged for a closer look

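The CAPE changes of EGR1 had opposite signs in the lines, at -0.50 in HK1 and 0.20 in HK1EBV, a difference of 0.70. Those of FOSL2 were 1.05 and -0.00, a difference of -1.05, with the HK1 control as the low array. The HK1EBV value of FOSL2 became 0.0139 with arrays shifted to a common median, so its signs were then alike. Beyond the members, signs were compared only for list genes picked by rank or by a call, the FOS neighbours and the similar genes. The whole lists were not screened. Of the 22 other basic leucine zipper partners tested, for example, 11 were higher and 3 lower in both lines, which leaves others without a shared sign. Among the genes compared, opposite signs were also found for ABTB2, of the genes most similar to FOSL2, with a difference of -0.947. The others were the AP-1 target MMP1 with -0.918, the FOS neighbour BATF with -0.365 and ZFP36L1 with -0.214. For EGR4 the difference was 0.103 and for CCND2 -0.0496. None of these differences was tested, since each line has 1 array per treatment.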

How the results depend on the processing

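The mean CAPE change of each of the 10 genes kept its sign under the 11 other fits, and so did the line difference but for FOS, which went from -0.01 to 0.0067 with arrays shifted to a common median. Counts of calls depended on the setting. For CAPE, genes past the threshold numbered 1, against 0 without the filter, 894 with a filter at the 50th percentile, 1006 with a common median, 755 with quantile normalization, 7 with a trended prior, 379 with a robust prior, 999 without genes of zero residual, 0 without the line in the model and 544 at a threshold of 0.1. Members past it numbered 0, against 3 with the 50th percentile, 3 with a common median, 2 with quantile normalization, 2 with a robust prior, 3 without genes of zero residual and 2 at 0.1. For the line, genes numbered 440, against 0 without the filter, 1296, 1526, 1321, 959 with a robust prior, 1476 without genes of zero residual, 0 without the treatment in the model and 1390 at 0.1. Members numbered 2, against 0 without the filter, 0 without the treatment and 3, with MYC, under 8 of the 11 other fits and at 0.1. Where genes numbered 0, limma gave 2992 and 1364 at an unadjusted p under 0.05 for CAPE, and 3519 and 2000 for the line.

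With 0 taken within 1e-09 or 1e-08, both added after the data were seen, CAPE genes numbered 1108 and 1243 and members 3 and 4, MYC being added, and line genes 1591 and 1756. Within lines and treatments the 120 recomputed values moved by at most 0.06, and with a common median 2 turned their sign: the CAPE change of FOSL2 in HK1EBV (-0.0040 to 0.0139) and the line difference of ATF3 with CAPE (-0.0236 to 0.0123). Every array is the whole of its group, so a replicate could not be dropped. No pairing by replicate number was possible because the labels carry none. The additive model already sets CAPE against DMSO within each line. Its counterpart without the line or the treatment gave 0 calls, as did the additive model without the filter on dim probe sets. The number of arrays limits the precision.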
